A study of Mus musculus with 14 samples.

Results

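Isx and 8 genes that carry, bind, store or oxidise vitamin A were followed across duodenal tumors, the normal duodenum beside them and wildtype duodenum. The 9 genes were Isx, Bco1, Rbp2, Rbp4, Ttr, Lrat, Aldh1a1, Stra6 and Crabp2. They were chosen by name, each through the single gene symbol of its array row, and all 9 were found among the 19938 genes tested. RNA levels were read on Affymetrix Mouse Gene ST arrays, and every level below is the log2 of an array signal, on which a difference of 1 is a doubling. Tumors (6 arrays) came from age-matched Lrig1-CreERT2/CreERT2 (Lrig1-/-) mice, in which a CreERT2 insertion disrupts both copies of Lrig1, a transmembrane brake on growth factor receptors. Adjacent normal tissue (5 arrays) came from the same genotype and from 5 of the same mice, and wildtype duodenum came from 3 other mice. All 9 mice had a mixed 129S7/SvEv and C57/BL6 background, and all tissue was labelled proximal duodenum. The labels do not give the ages or say whether any mouse received tamoxifen. Tumor and adjacent tissue share the Lrig1 genotype, so their difference does not measure the loss of Lrig1. The comparison of adjacent with wildtype tissue is the one that sets the genotypes side by side without tumor.

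Vitamin A enters the body as retinyl esters or as plant carotenoids, and the enterocytes of the upper small intestine take up most of it. Bco1 cleaves beta-carotene to retinal, Rbp2 holds retinal and retinol inside the enterocyte, and Lrat joins retinol to a fatty acid so that it leaves in chylomicrons. Part of the retinal is oxidised to retinoic acid, which acts through nuclear receptors. In the mouse intestine retinoic acid induces the homeobox factor Isx, which represses Bco1 and the carotenoid transporter Scarb1 and so closes a feedback loop on vitamin A uptake. In blood, retinol travels on Rbp4 in a complex with Ttr, and Stra6 is the membrane receptor for that complex.

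The promoters of the members that fell, and of Bco1 as the known target of Isx, are shown because they are where such regulation would act. RefSeq windows of 250 bases before the annotated start were taken from the GRCm38.p6 table, which held 7 of the 9 members; Ttr and Crabp2 are named only. Capitals mark 4 short motifs, searched for on both strands. Those bound by Cdx factors were taken as TTTAT, and GATA sites as the letters AGATAA. The half-site of nuclear receptors was taken as AGGTCA, and the core bound by many homeodomain proteins as TAATTA. Overlapping matches were all kept. The windows lie at chr8:74872924-74873173 for Isx, chr8:117095615-117095864 for Bco1, chr9:98490287-98490536 for Rbp2, chr3:82903975-82904224 (minus strand) for Lrat and chr19:20601718-20601967 for the second Aldh1a1 start. They read, 5′ to 3′ in the direction of the gene:
Isx: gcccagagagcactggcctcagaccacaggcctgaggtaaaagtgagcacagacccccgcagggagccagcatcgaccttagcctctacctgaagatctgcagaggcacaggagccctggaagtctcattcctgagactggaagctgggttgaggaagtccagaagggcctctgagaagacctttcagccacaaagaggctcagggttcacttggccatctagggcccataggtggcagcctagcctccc
Bco1: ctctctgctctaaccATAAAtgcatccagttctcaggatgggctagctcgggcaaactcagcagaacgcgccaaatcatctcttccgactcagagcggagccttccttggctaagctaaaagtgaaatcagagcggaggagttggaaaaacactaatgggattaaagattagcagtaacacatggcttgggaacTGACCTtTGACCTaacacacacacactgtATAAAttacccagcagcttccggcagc
Rbp2: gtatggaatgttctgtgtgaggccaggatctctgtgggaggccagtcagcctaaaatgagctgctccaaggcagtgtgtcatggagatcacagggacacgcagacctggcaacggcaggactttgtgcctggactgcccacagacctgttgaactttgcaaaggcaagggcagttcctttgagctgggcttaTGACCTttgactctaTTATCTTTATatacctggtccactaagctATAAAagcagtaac
Lrat: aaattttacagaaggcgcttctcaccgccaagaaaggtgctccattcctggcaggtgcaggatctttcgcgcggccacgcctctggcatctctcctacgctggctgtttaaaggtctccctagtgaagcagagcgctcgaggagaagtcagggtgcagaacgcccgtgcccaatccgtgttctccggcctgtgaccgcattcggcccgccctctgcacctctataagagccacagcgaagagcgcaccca
Aldh1a1: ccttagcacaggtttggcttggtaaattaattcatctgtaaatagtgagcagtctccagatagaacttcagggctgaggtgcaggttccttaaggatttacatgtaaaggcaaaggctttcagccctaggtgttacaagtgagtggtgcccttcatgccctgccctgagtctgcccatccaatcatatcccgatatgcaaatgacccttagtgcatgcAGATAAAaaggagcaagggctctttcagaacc

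The Bco1 window held 2 copies of AGGTCA on the opposite strand, at 56 to 51 and 49 to 44 bases before the start, with 1 base between them. That spacing is known from sites of Ppar and Rxr pairs. The Rbp2 window held a single AGGTCA at 58 to 53 bases before the start. In the Rbp2 window AGATAA on the opposite strand, at 43 to 38 bases, overlapped TTTAT at 38 to 34 bases by a shared base. The second Aldh1a1 window held AGATAA at 32 to 27 bases overlapping TTTAT on the opposite strand at 30 to 26 bases. In Bco1 at 27 to 23 bases, and in Rbp2 at 14 to 10 bases, the TTTAT match lay inside the letters TATAAA. The Isx and Lrat windows, and the first of the 2 Aldh1a1 windows, which is not printed, matched none of the 4 motifs. Over all 32851 promoter windows, the Cdx letters were present in 37.3%, the GATA letters in 9.99%, the half-site in 14% and the homeodomain core in 4.84%. A match is a description of the letters and not a bound site.

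The tissue labels were checked against marker genes, and several arrays held more than the label says. Enterocyte genes were present on every array, with a mean level of 10.7 to 11.0 in tumors, 12.9 to 13.7 in adjacent tissue and 12.1 to 13.6 in wildtype tissue. Of 8 such genes 7 fell in tumors against adjacent tissue and 7 against wildtype tissue. The 10 pancreatic acinar genes averaged 7.20 to 9.61 in tumors. They averaged 12.8 and 13.8 in adjacent replicates 1 and 2 and 7.33 to 7.48 in the other 3, and 13.5 and 12.7 in wildtype replicates 1 and 3 against 7.54 in replicate 2. The same 4 arrays without acinar transcripts had lower levels of 3 genes of the first part of the duodenum, 7.84 to 9.13 against 12.7 to 13.4 in the other 4 non-tumor arrays and 12.5 to 13.1 in tumors. Of 4 genes used further along the small intestine, Enpp7 and Cubn ran the other way, Enpp7 with 6.4 to 6.73 in tumors, 11.9 to 13.3 on those 4 arrays and 6.77 to 8.86 on the other non-tumor arrays. Fabp6 and Slc10a2 stayed below 6.4 on all 14 arrays. Gastric pit genes averaged 12.3 to 13.8 in tumors, 6.11 to 8.19 in adjacent tissue, and 13.4, 6.73 and 7.17 in wildtype replicates 1 to 3, so wildtype replicate 1 lay within the tumors' range. Array medians ran from 7.11 to 7.29.

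Between tumor and adjacent tissue 5 of the 9 members passed an adjusted p of 0.05: Ttr rose, and Isx, Rbp2, Lrat and Aldh1a1 fell. Over all genes 31.7% passed, 19.1% upward and 12.6% downward. Against wildtype tissue 4 of 9 passed, Ttr upward and Bco1, Rbp2 and Lrat downward, where 14.1% of all genes did, 9.65% upward and 4.48% downward. Between adjacent and wildtype tissue 0 of 9 passed by limma, as did 0% of all genes; 559 genes had an unadjusted p under 0.05. No member had groups that did not overlap there, as 2.12% of all genes did. The members' median log2 fold change was -0.10 in tumors versus adjacent tissue, beside 0.04 for all genes, and -0.33 versus wildtype tissue, beside 0.00 for all genes. In adjacent versus wildtype tissue it was 0.09, beside -0.01. In whole tissue, fewer cells of a type and less RNA per cell cannot be told apart.

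**Figure D1:**
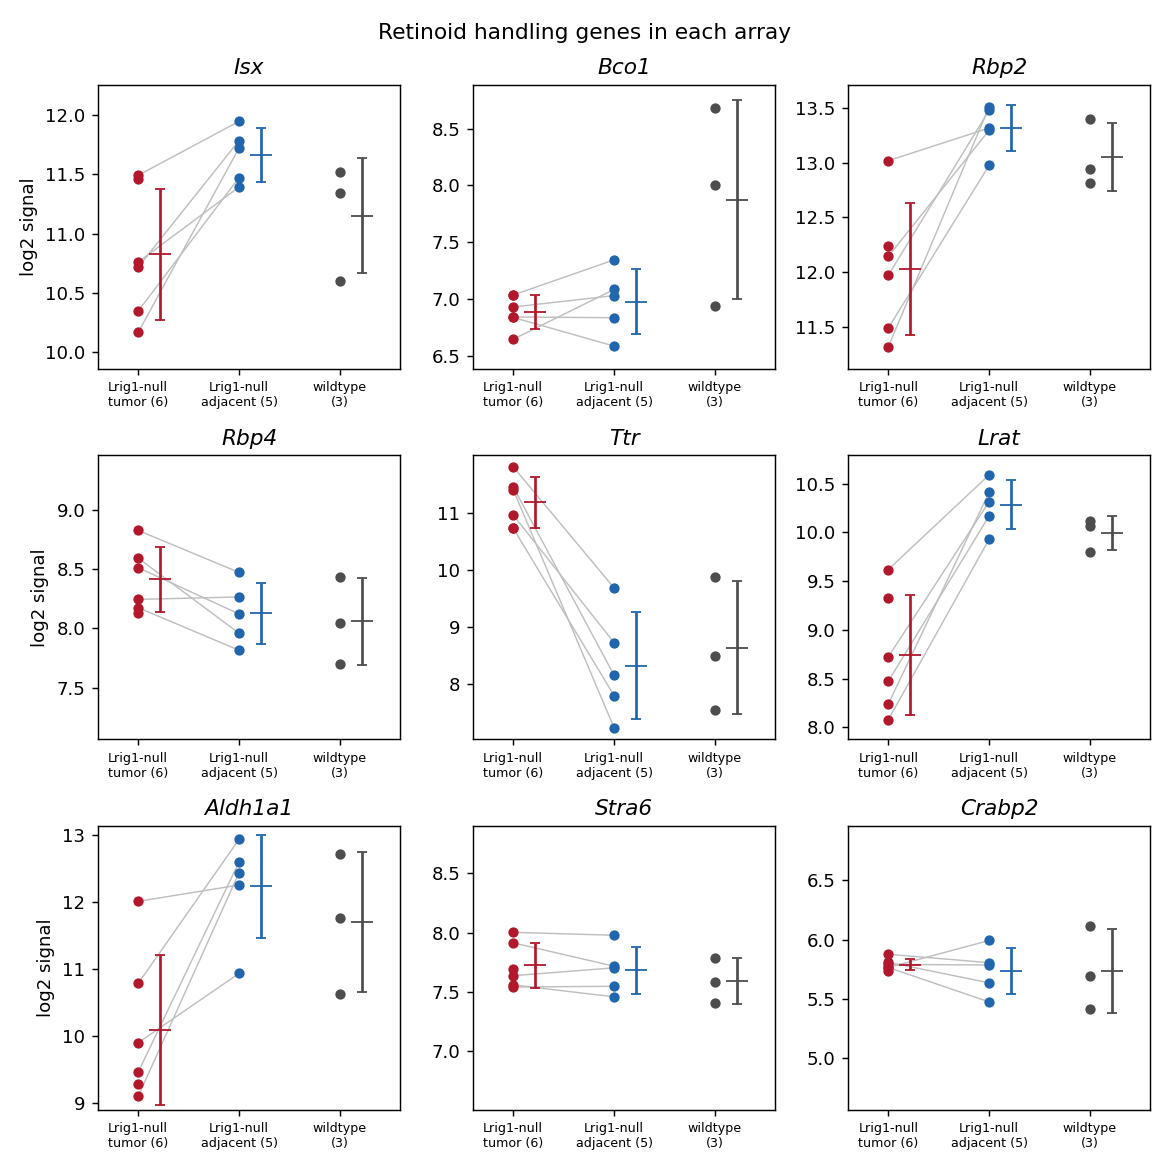
Log2 signal of the 9 genes in each array, by group (number of arrays in brackets). Points are arrays, grey lines join tumor and adjacent tissue of a mouse, and the bars beside them are mean ± SD. Ttr is higher in all 6 tumors than in any other array, Lrat is lower in all 6, and Bco1 is spread widely in wildtype tissue. Each panel has its own vertical axis, so levels are not comparable between genes.

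Isx, the homeobox factor of the feedback loop, was lower in tumors than in the adjacent tissue of the same mouse in 5 of 5 mice. Its level in tumors ran from 10.16 through a median of 10.74 to 11.49. The adjacent samples had 11.95, 11.47, 11.79, 11.72 and 11.39, and the wildtype samples 10.60, 11.52 and 11.34. Tumors 1 and 2 reached the lowest adjacent values, while the other 4 lay below all adjacent samples. The fold change against adjacent tissue was -0.88 ± 0.20 (log2, SE; adjusted p 0.00328), or 1.85-fold lower. The differences within a mouse ran from -1.56 in the mouse of tumor 5 to -0.46 in that of tumor 2. The mouse IDs start with the letter F or B, with no stated meaning. Adjacent replicates 1 and 2, which held acinar transcripts, came from F mice, and replicates 3 to 5, which lacked them, from B mice. Letter and acinar transcripts thus cannot be told apart among adjacent samples. Genes of the first part of the duodenum averaged 12.5 to 12.9 in the B tumors and 8.23 to 9.13 in the B adjacent samples. In F mice they averaged 12.6 to 13.1 in tumors and 12.7 and 13.4 in adjacent samples. In the F mice, 3 tumors against 2 adjacent samples, the change was -0.65 (adjusted p 0.279). In the B mice, 3 tumors against 3, it was -1.09 (adjusted p 0.000848). With only the non-tumor samples that held acinar transcripts in the fit it was -0.87 (adjusted p 0.127).

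Against wildtype tissue Isx did not pass the threshold. The change was -0.33 ± 0.28 (adjusted p 0.529), and the groups overlapped, since wildtype replicate 1 had 10.60, below 4 of the 6 tumors. Without that sample it was -0.60 (adjusted p 0.166). Within mice of letter B, which leaves out wildtype replicate 1, Isx was lower by -0.88 in tumors (adjusted p 0.0232), and within letter F it was 0.50 (adjusted p 0.829). Adjacent tissue had the highest mean level, 11.66 ± 0.23 (SD), and wildtype tissue had 11.15 ± 0.49, a difference of 0.56 ± 0.29 (SE) that did not pass (adjusted p 0.998). Tumors had 10.82 ± 0.55, so tumor and wildtype tissue, next to each other in that order, did not differ beyond their spread.

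Bco1, the carotene-cleaving enzyme that Isx represses, did not pass the threshold between tumor and adjacent tissue. It had 6.64, a median of 6.88 and 7.04 in tumors, and 6.58, 7.34, 7.08, 6.83 and 7.03 in adjacent tissue, and the groups overlapped throughout. The change was -0.10 ± 0.19 (adjusted p 0.776), with 3 of 5 mice lower and 2 higher. The wildtype samples had 8.68, 8.0 and 6.94. The first 2 lay above every tumor and every adjacent sample, and the third lay among them. Bco1 was thus 1.98-fold lower in tumors than in wildtype tissue (log2 -0.99 ± 0.27; adjusted p 0.0251), and the fold change of adjacent versus wildtype tissue was of similar size and did not pass (-0.89 ± 0.28; adjusted p 0.998). The call against wildtype rests on those 2 samples: without replicate 1 the change was -0.58 (adjusted p 0.0896), without replicate 2 the adjusted p was 0.123, and without replicate 3 the change was -1.46. Within F mice it was -1.72 (adjusted p 0.138, 1 wildtype sample) and within B mice -0.66 (adjusted p 0.126). Lower Isx in tumors than in adjacent tissue therefore stood beside a Bco1 level that did not pass in the same comparison. The highest Bco1 value in tumors, 7.04, lay below the array medians of 7.11 to 7.29. With no detection call, whether Bco1 was above background in tumors and adjacent tissue is unknown.

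Scarb1, the other known target of Isx, also did not pass between tumor and adjacent tissue (0.57 ± 0.37; adjusted p 0.292). It ran from 10.71 to 11.12 in tumors. In non-tumor tissue it followed the duodenal position markers: the 4 arrays with acinar transcripts had 11.65 and 11.40 (adjacent) and 11.31 and 11.37 (wildtype), and the 4 without had 9.31, 9.0 and 10.20 (adjacent) and 9.87 (wildtype). The tumors lay between those sets. Bco1 showed no such split, with 6.58 to 8.68 on the first 4 arrays and 6.83 to 8.0 on the others.

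Rbp2, the retinol and retinal binding protein of the enterocyte, fell in tumors against both tissues. Tumors had 11.31, a median of 12.06 and 13.02, against 13.32, 12.98, 13.48, 13.52 and 13.30 in adjacent tissue and 12.82, 13.41 and 12.95 in wildtype tissue. Tumor 2 overlapped the non-tumor range and the other 5 tumors lay below all 8 non-tumor arrays. The change against adjacent tissue was -1.31 ± 0.21 (adjusted p 0.000257), 2.47-fold lower and lower in 5 of 5 mice. It did not pass within F mice (-0.90; adjusted p 0.193) or with only the non-tumor samples that held acinar transcripts in the fit (-1.07; adjusted p 0.0663). Within a mouse it ran from -2.20 to -0.30, the smallest being that of tumor 2. Against wildtype tissue it was -1.03 ± 0.30 (adjusted p 0.0330), and this call ended without tumor 3 (adjusted p 0.0633), tumor 4 (0.0578), wildtype replicate 2 (0.186) or wildtype replicate 3 (0.0949). Adjacent and wildtype tissue did not differ beyond their spread (0.28 ± 0.31; adjusted p 0.998). Levels above 13 approach the top of the scale of these arrays, where differences can be compressed.

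Lrat, which makes the retinyl esters for chylomicrons, was below every non-tumor array in all 6 tumors, the only one of the 4 lowered members to be so. It had 8.08, a median of 8.60 and 9.62 in tumors. Adjacent tissue had 10.59, 9.93, 10.41, 10.17 and 10.32, and wildtype tissue 9.80, 10.07 and 10.12. The lowest of the 8 non-tumor values, 9.80, lay above the highest tumor. Together with Ttr, Lrat made 2 of 9 members whose tumor and adjacent values did not overlap, against 17.2% of all genes, and 2 of 9 against wildtype tissue, where 13.6% of all genes did not overlap. The change was -1.58 ± 0.19 against adjacent tissue (adjusted p 2.64e-05), 2.99-fold lower, with all 5 mice between -2.17 and -0.97. It did not pass within F mice (-1.29; adjusted p 0.104). Against wildtype tissue it was -1.25 ± 0.27 (adjusted p 0.00866), 2.38-fold lower. That call ended narrowly without wildtype replicate 2 (adjusted p 0.0516) or 3 (0.0524). Adjacent tissue averaged 10.28 ± 0.25 and wildtype tissue 9.99 ± 0.17 (SD), which did not differ beyond their spread (0.33 ± 0.28, SE; adjusted p 0.998).

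Aldh1a1, a retinal dehydrogenase that makes retinoic acid, had the largest change on the log2 scale of the 4 that fell, and the largest SD among tumors, 1.12. Tumors had 9.10, a median of 9.68 and 12.01, against 10.94, 12.26, 12.60, 12.94 and 12.44 in adjacent tissue. The wildtype samples had 10.63, 12.72 and 11.76. Tumor 3, at 12.01, was the only one of 6 above the lowest adjacent sample. The change against adjacent tissue was -2.09 ± 0.45 (adjusted p 0.00226), 4.26-fold lower. It did not pass within F mice (-1.08; adjusted p 0.415). The mouse of tumor 3 had a difference of -0.24 and the other 4 mice differences of -3.34 to -1.04. Against wildtype tissue Aldh1a1 did not pass (-1.61 ± 0.64; adjusted p 0.115). It passed in 4 of 26 alternatives: without tumor 3 (-1.99; adjusted p 0.0257), without wildtype replicate 1 (-2.15; adjusted p 0.0387), within B mice (-2.46; adjusted p 0.00541) and with array weights (-2.50; adjusted p 0.000205). The estimation of those weights stopped before reaching its tolerance. With them 9525 genes passed against wildtype tissue, where 2817 did in the main fit. Adjacent and wildtype tissue did not differ beyond their spread (0.48 ± 0.65; adjusted p 0.998). Among non-tumor arrays the 4 with acinar transcripts had 10.63 to 12.26 and the 4 without had 12.44 to 12.94. With only the non-tumor samples that held acinar transcripts in the fit, the change against adjacent tissue was -1.31 (adjusted p 0.246), and with only those that lacked them -2.68 (adjusted p 0.000956). Aldh1a7, a close paralog that may share signal with it, was the gene most like Aldh1a1 over the arrays (root mean square difference 0.38), so its own fall (-1.65; adjusted p 0.00200) is uncertain.

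**Figure D2:**
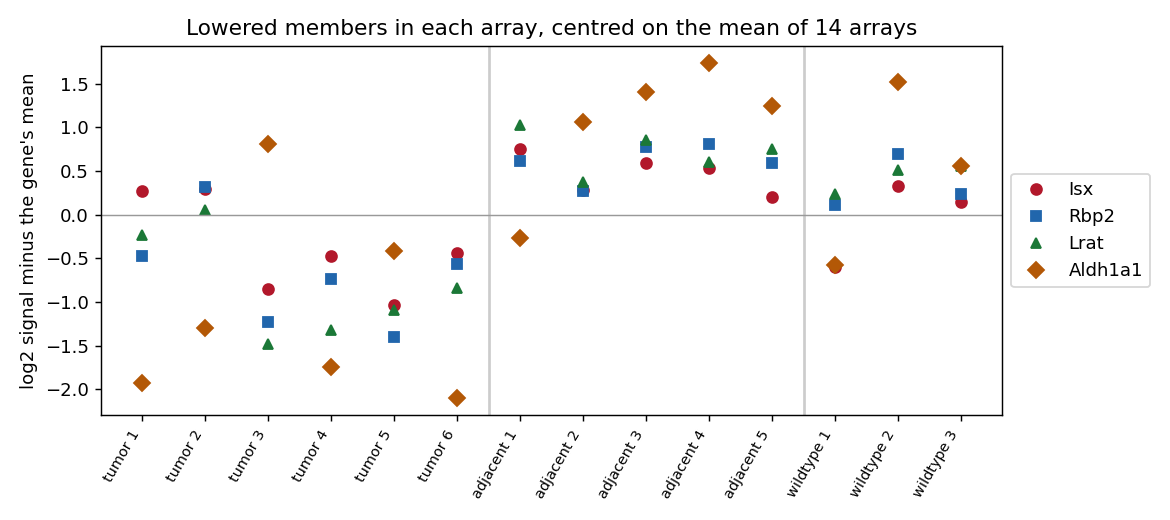
Log2 signal of the 4 members that fell in tumors versus adjacent tissue, each minus its mean over the 14 arrays, by array; vertical lines divide tumors, adjacent and wildtype samples. Isx, Rbp2 and Lrat are highest among tumors in tumors 1 and 2, while Aldh1a1 is highest in tumor 3. Wildtype replicate 1 is the lowest non-tumor array for Isx, Rbp2, Lrat and Aldh1a1.

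Each of the 4 lowered genes was lower in tumor than in adjacent tissue in 5 of 5 mice. Their order among the 6 tumors was not the same for all 4. Isx, Rbp2 and Lrat were highest in tumors 2 and 1. Isx and Rbp2 were lowest in tumors 5 and 3, and Lrat in tumors 3 and 4. Aldh1a1 had another order, highest in tumors 3 and 5 and lowest in tumors 6 and 1. The enterocyte marker mean lay between 10.72 (tumor 3) and 11.03 (tumors 2 and 5) in the 6 tumors. The part of a lower enterocyte share in the fall of these 4 genes, or in their differences among tumors, was not tested. The F mice hold tumors 1 to 3 and adjacent replicates 1 and 2, the adjacent samples with acinar transcripts. Within B mice Rbp2 (-1.62), Lrat (-1.82) and Aldh1a1 (-2.88) passed against adjacent tissue.

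Ttr, the plasma carrier of thyroxine and of Rbp4 with its retinol, was the only member that rose. Its level was 10.73, a median of 11.18 and 11.80 in tumors. It was 8.73, 9.69, 7.81, 7.24 and 8.16 in adjacent tissue and 9.87, 7.56 and 8.50 in wildtype tissue. All 6 tumors lay above all 8 non-tumor arrays. The change against adjacent tissue was 2.88 ± 0.36 (adjusted p 2.66e-05), 7.37-fold higher, with all 5 mice between 2.11 and 4.16. That was rank 79 among 19938 genes ordered from the largest rise. Against wildtype tissue it was 2.53 ± 0.50 (adjusted p 0.00462), 5.79-fold higher and rank 54. Adjacent and wildtype tissue did not differ beyond their spread (-0.35 ± 0.52; adjusted p 0.998).

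Ttr is made in large amounts by liver and also by pancreatic islets, so markers of both were read beside it. Ins2 and Iapp, the islet hormones insulin and amylin, had 6.03 to 6.44 and 5.52 to 5.92 in tumors, near the lowest level of these probes on any array. They were higher on 3 non-tumor arrays that also had acinar transcripts. Ins2 had 7.66 and 10.36 in adjacent replicates 1 and 2 and 8.87 in wildtype replicate 3, and Iapp had 10.22 in adjacent replicate 2 and 9.29 in wildtype replicate 3. In the non-tumor arrays Ttr was higher where acinar transcripts were present, 8.50 to 9.87, than where they were not, 7.24 to 8.16. With only the non-tumor samples that held acinar transcripts in the fit, Ttr was 2.02 higher in tumors than in adjacent tissue (adjusted p 0.00634), and with only those that lacked them 3.45 higher (adjusted p 1.06e-06). The 7 hepatocyte genes averaged 6.17 to 6.78 in tumors, 6.28 to 6.75 in adjacent tissue and 6.44 to 6.71 in wildtype tissue, and none of them passed. Of 8 enteroendocrine genes 0 rose in tumors against adjacent tissue and 3 fell. Gastric pit genes rose with Ttr, 6 of 6 in tumors against adjacent tissue, with a median log2 fold change of 6.49. Brunner gland and mucous neck genes rose too, 4 of 4 with a median of 4.88, as did 5 of 6 fibroblast genes. Of 5 goblet genes 3 rose and 1 fell. Wildtype replicate 1, the highest non-tumor array for Ttr, was also the one with high gastric pit genes, and its Brunner gland and mucous neck mean was 12.6, against 12.3 to 13.6 in tumors. The part of these cell types in the rise of Ttr was not tested; without that sample the rise against wildtype tissue was 3.15 (adjusted p 0.000557).

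**Figure D3:**
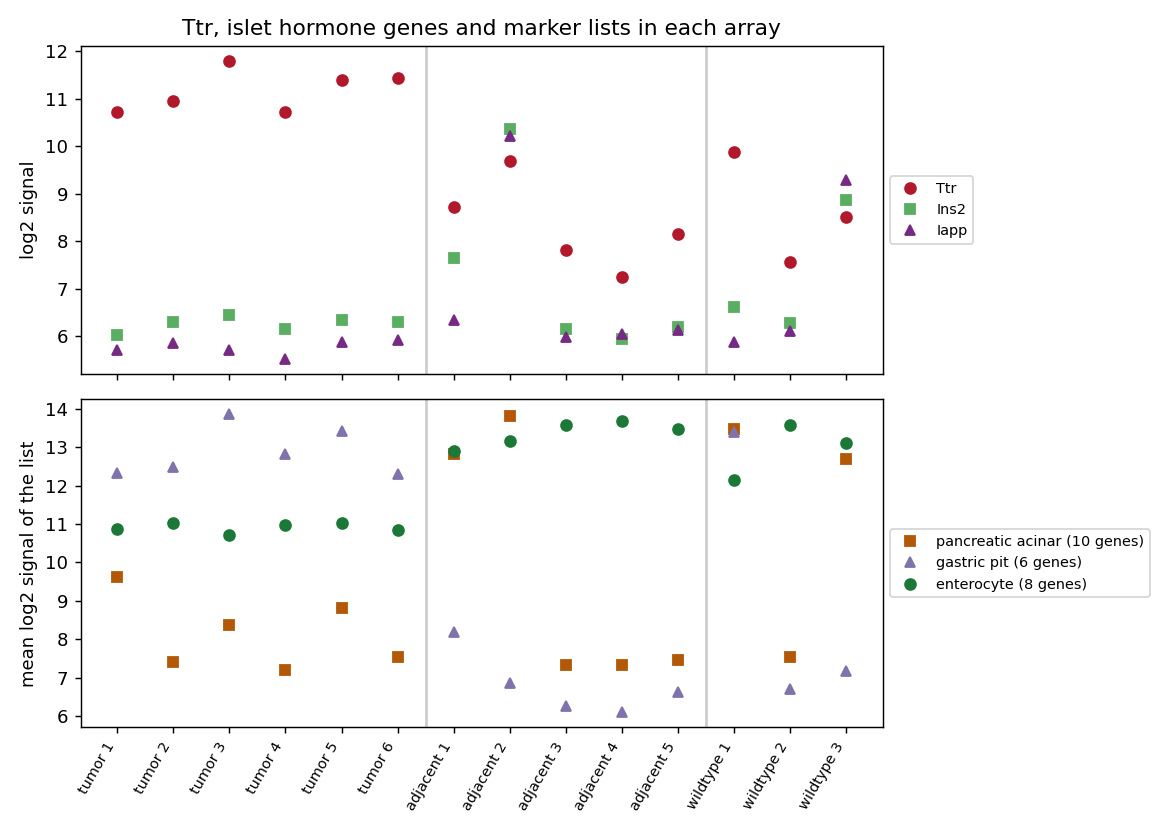
Top, log2 signal of Ttr and of the islet hormone genes Ins2 and Iapp by array. Bottom, mean log2 signal of the acinar, gastric pit and enterocyte lists by array. Ttr is above 10.7 in all 6 tumors while Ins2 and Iapp stay below 6.5 there, and the gastric pit list is high in the 6 tumors and in wildtype replicate 1.

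Rbp4, the partner of Ttr in blood, did not pass in any comparison. Tumors had 8.13, a median of 8.38 and 8.83, against 8.27, 8.12, 7.82, 8.47 and 7.96 in adjacent tissue and 8.43, 8.05 and 7.70 in wildtype tissue. The groups overlapped, with 3 of 6 tumors above all non-tumor arrays. The change was 0.31 ± 0.13 against adjacent tissue (adjusted p 0.0934), higher in 4 of 5 mice. With each mouse as a fixed block over the 5 pairs it was 0.34 and passed (adjusted p 0.0384). Against wildtype tissue it was 0.36 ± 0.18 (adjusted p 0.245).

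Stra6, the Rbp4 receptor, and Crabp2, which hands retinoic acid to its nuclear receptor, showed no difference past the threshold. Stra6 ran from 7.54 to 8.0 in tumors, 7.46 to 7.98 in adjacent tissue and 7.40 to 7.78 in wildtype tissue. Its change was 0.05 ± 0.09 against adjacent tissue (adjusted p 0.774) and 0.13 ± 0.13 against wildtype tissue (adjusted p 0.575). Crabp2 ran from 5.73 to 5.88 in tumors, 5.47 to 5.99 in adjacent tissue and 5.41 to 6.11 in wildtype tissue. Its change was 0.05 ± 0.10 against adjacent tissue (adjusted p 0.753) and 0.05 ± 0.14 against wildtype tissue (adjusted p 0.866). The table holds no detection call, so whether Crabp2 was measured above background on any array is unknown.

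**Figure D4:**
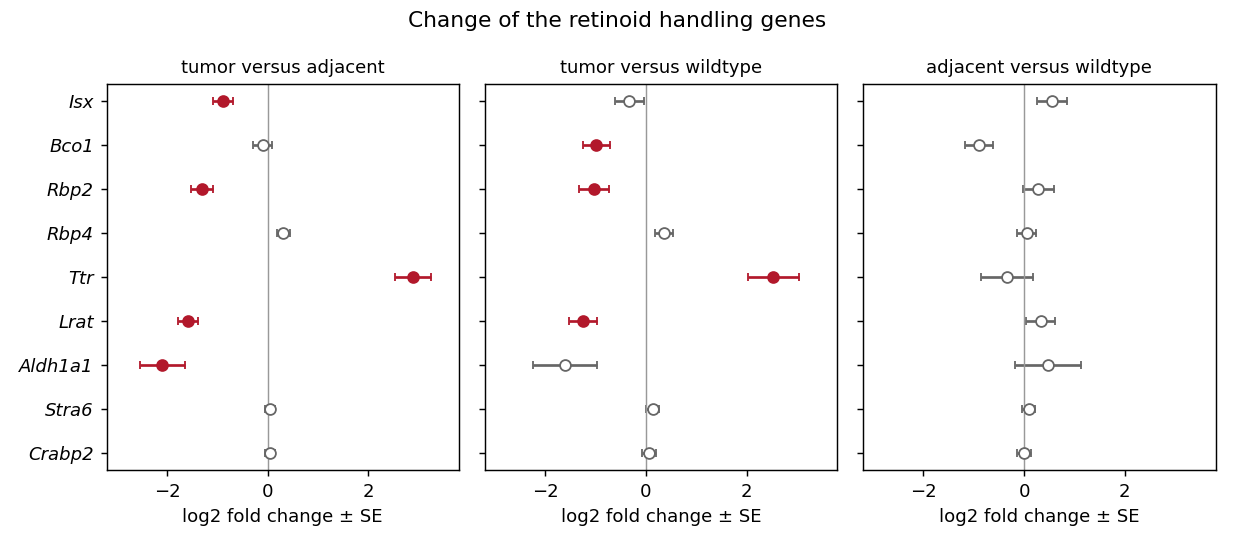
Log2 fold change ± SE of each member in the 3 comparisons; filled red points passed an adjusted p of 0.05. Ttr stands alone on the right in both tumor comparisons, Isx and Aldh1a1 passed only against adjacent tissue, Bco1 only against wildtype tissue, and no member passed between adjacent and wildtype tissue.

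The pathway lists held 76 further genes, among them genes of general fat absorption and the regulators named with Isx. Of the 76, 46 passed between tumor and adjacent tissue, 9 up and 37 down, with a median of -0.29 beside 0.04 for all genes. Over all genes 31.7% passed in that comparison, 19.1% up and 12.6% down. Against wildtype tissue 26 of 76 passed, 5 up and 21 down, where 14.1% of all genes did. Between adjacent and wildtype tissue 0 passed. The lists were chosen with earlier results of these data known.

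Of 7 uptake genes 5 fell and 0 rose. Cubn, a receptor for protein-bound vitamins, fell by 4.39 on the log2 scale (SE 0.86; adjusted p 0.00117). It is also a position marker: it had 5.82 to 6.37 in tumors, against 7.09, 9.93, 11.90, 12.41 and 10.72 in adjacent tissue and 5.86, 12.14 and 6.85 in wildtype tissue. Cd36, a scavenger receptor for fatty acids and carotenoids, had 6.50 to 8.56 in tumors and 10.61 to 11.56 in adjacent tissue (-3.55 ± 0.39; adjusted p 9.6e-06). Npc1l1, the cholesterol transporter (-1.84 ± 0.18; adjusted p 4.15e-06), and Bco2, which cleaves carotenoids off centre (-1.40 ± 0.28; adjusted p 0.00135), fell as well. Both changes were in the same direction in 5 of 5 mice.

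Of the genes that cleave retinyl esters 5 of 8 fell and 0 rose, and of those that re-esterify and export 5 of 5 fell. Lipe, the hormone-sensitive lipase (-1.92), and the carboxylesterases Ces1g (-1.68) and Ces2e (-1.56) fell. Pnliprp2, a pancreatic lipase relative, fell by 2.18, but its adjacent level ran from 9.66 to 13.86 with the acinar transcripts. Cel, the pancreatic carboxyl ester lipase, followed them too, with 6.02 to 9.31 in tumors and 5.99 to 14.27 in adjacent tissue, and did not pass (adjusted p 0.319). Apoa4 (-1.75), Mttp (-1.50) and Apob (-1.38), which build chylomicrons, and Dgat1 (-1.21), which can also esterify retinol, had tumor values that all lay below those of adjacent and of wildtype tissue.

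**Figure D5:**
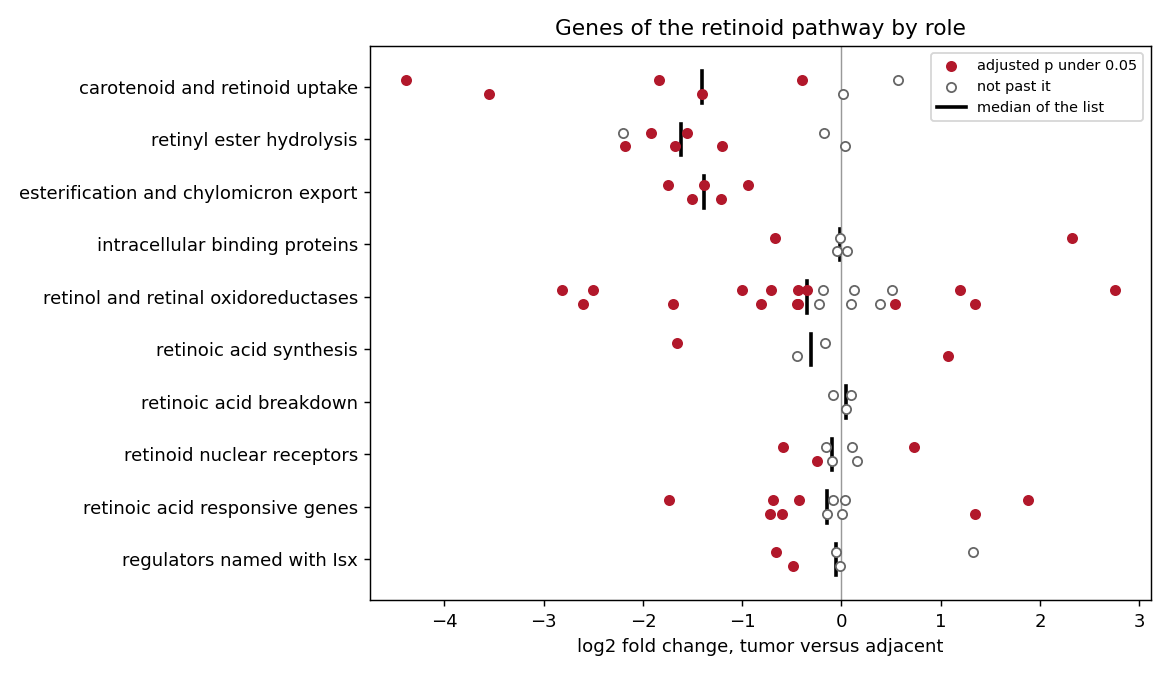
Log2 fold change of tumor versus adjacent tissue for each further gene of the pathway, by role; filled points passed an adjusted p of 0.05 and the bar is the list's median. The medians of uptake, ester hydrolysis and export lie at -1.40, -1.62 and -1.38, and those of the other lists between -0.34 and 0.04.

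The redox enzymes moved both ways, 4 up and 11 down of 21. Rdh9 (-2.81), Rdh7 (-2.61) and Rdh16 (-1.69), which belong to a family of short-chain dehydrogenases acting on retinol and steroids, fell, as did the alcohol dehydrogenase Adh4 (-2.51). Akr1b8, an aldo-keto reductase able to reduce retinal, rose by 2.76 ± 0.40 (adjusted p 0.000106). It had 11.27 to 11.98 in tumors, 8.12 to 9.67 in adjacent tissue and 11.17, 7.53 and 9.01 in wildtype replicates 1 to 3. Rdh10, the retinol dehydrogenase that mouse embryos need to make retinal, rose by 1.19 ± 0.10 (adjusted p 1.59e-06), above all 8 non-tumor arrays, and Dhrs9 rose by 1.34 (adjusted p 0.0140). Dhrs9 had 8.85 in wildtype replicate 1, within the tumors' range of 7.49 to 10.32. Against wildtype tissue Dhrs9 did not pass (adjusted p 0.299).

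Of the other retinal dehydrogenases, Aldh1a3 rose where Aldh1a1 fell. It had 8.12 in tumor 3 and 9.56 to 11.39 in the other 5 tumors, against 8.45 to 9.33 in adjacent tissue and 8.88 to 9.02 in wildtype tissue. The change was 1.08 ± 0.35 (adjusted p 0.0283), higher in 4 of 5 mice. Tumor 3 thus had the lowest Aldh1a3 and the highest Aldh1a1 of the 6 tumors. Aldh1a2 did not pass (-0.45 ± 0.23; adjusted p 0.158). The binding proteins split, with Fabp5, which carries fatty acids and retinoic acid, up by 2.32 (adjusted p 0.000369) and Rbp7 down by 0.66 on the log2 scale (adjusted p 0.00994). Fabp5 had 10.21 in wildtype replicate 1, within the tumors' range of 9.43 to 11.56. It did not pass against wildtype tissue (adjusted p 0.0568). None of the retinoic acid hydroxylases Cyp26a1, Cyp26b1 and Cyp26c1 passed.

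Among the nuclear receptors Rarg rose (0.73; adjusted p 3.93e-05), and Rxra (-0.59) and Ppard (-0.25) fell, while 4 of 7 did not pass. Of 11 genes known to respond to retinoic acid 2 rose and 5 fell. Ret, a receptor kinase, rose by 1.88 and Egr1, an immediate early factor, by 1.35. Egr1 had 9.25 in wildtype replicate 1, within the tumors' range of 8.87 to 9.64. Ccr9, the gut homing receptor of lymphocytes, fell by 1.73 on the log2 scale, and 5 of 6 macrophage and dendritic cell markers fell beside it. Of the intestinal regulators named with Isx, Cdx2 (-0.49 ± 0.14; adjusted p 0.0145) and Gata6 (-0.66 ± 0.09; adjusted p 7.96e-05) fell. Gata4 did not pass (-0.05 ± 0.11; adjusted p 0.812), with 11.00 to 11.74 in tumors and 11.21 to 11.64 in adjacent tissue. Hnf4a had 12.73 to 13.12 in tumors and 12.76 to 13.06 in adjacent tissue (adjusted p 0.944). Pdx1, a factor of the pancreas and first duodenum, followed the position markers, with 10.54 to 11.22 in tumors and 7.86 to 11.64 in adjacent tissue (adjusted p 0.124).

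The genes whose pattern over the 14 arrays was most like that of Isx, by the smallest root mean square difference of centred log2 values, were Crot (0.23), Mocos (0.25), Casp1 (0.26), Lmbr1l (0.26) and Slc18a1 (0.26). Rbp2 was closest to Maf (0.21), Creb3l3 (0.22) and Chp2 (0.22), and Lrat to Malrd1 (0.20), Nlrp6 (0.21) and Slc46a1 (0.21). Bco1 was closest to Spib (0.34), Siglecf (0.35) and Cpvl (0.35), and Ttr to Fxyd3 (0.42), Habp2 (0.47) and Akr1b8 (0.48). The same groups and arrays underlie all of these values, so they are descriptions only.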

How the data were processed

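The deposited table holds log2 signal for 35556 transcript clusters on 14 arrays, a unit inferred from a range of 2.87 to 14.8. The submitters' processing notes name Affymetrix Expression Console 1.1 and mm9. How the authors corrected background and normalized is not stated, and no detection call was used. Symbols came from the platform annotation, updated through gene identifiers: 21789 clusters had a single symbol, 1621 several and 12146 none. For the 999 genes with several clusters the brightest was used. The 19938 genes were fitted with limma 3.58.1 in R 4.3.3: group means over 14 arrays, mouse as a random block (correlation 0.334), moderated two-sided tests, and Benjamini-Hochberg adjustment over all genes at 0.05. The mouse comes from the description label. Deviations of tumor and adjacent tissue of a mouse, correlated over genes, were 0.251, 0.221, 0.289, -0.03 and 0.395 in the 5 pairs. The spread of each gene is shared by all 3 groups, so scatter among wildtype samples enters every SE. The number of arrays limits the precision.

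The members and the lists were chosen with earlier results of these data known. Named genes are all 9 members, up to 4 genes per pathway list with an adjusted p under 0.05 and at least a 2-fold change in tumors versus adjacent tissue, and the 5 genes most like Isx and 3 most like each other member ranging over 2 log2 units. Scarb1, Cel, Rdh10, Dhrs9, Rdh16, Aldh1a2, Rbp7, Rarg, Rxra, Ppard, Hnf4a, Pdx1, Cdx2, Gata4, Gata6 and the Cyp26 genes were named outside that rule. They were named after their values were seen. Of the listed genes, 10 had no row here and were not analysed. The fit was tested on simulated data. Up to 27 alternatives were run: block, samples, normalization, low-value filter, trend, array weights, cluster choice, each array left out, ID letter and acinar transcripts. A mean acinar level above 10 defined arrays with acinar transcripts.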

Additional observations from a re-analysis of the deposited data

Results flagged for a closer look

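Of 62 groups of values examined, 1 held a sample far from the others. Bco2, the enzyme that cleaves carotenoids off centre, had 9.57 in adjacent replicate 3, against 10.4 in each of the other 4 adjacent samples (10.37 to 10.43). Chance alone marks about 1 group in 20.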

How the results depend on the processing

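In tumors versus adjacent tissue, Ttr passed in all 27 alternatives (adjusted p 1.06e-06 to 0.0199), Lrat in 26 and Isx, Rbp2 and Aldh1a1 in 25. Within letter F only 1 of 9 members, 22 pathway genes and 1719 genes in all passed, and Isx had -0.65. Without the non-tumor arrays lacking acinar transcripts 2 members and 2181 genes passed, and Isx had -0.87 (adjusted p 0.127), Rbp2 -1.07 (0.0663) and Aldh1a1 -1.31 (0.246). Leaving out 1 array gave 5 to 5 members, 43 to 47 pathway genes and 5232 to 6475 genes, and Isx between -1.01 and -0.75. Mouse as a fixed replicate block changed no member's call except that of Rbp4 (0.34; adjusted p 0.0384). With no replicate block the same count of 5 members passed, beside 4811 of 19938 genes.

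Against wildtype tissue the counts depended most on the settings. With the groups compared alone, 1939 of 19938 genes passed. For the fits without the arrays with acinar transcripts and within letter B, no count over all genes is given here. The member counts of those fits would have no share to be read against and are left out. Members called were 2 with the groups compared alone and 1 without the arrays lacking acinar transcripts (Ttr). They were 5 with array weights and 1 to 4 with an array left out. Pathway genes called were 49 with array weights, 8 without the arrays lacking acinar transcripts, 0 within letter F and 10 to 34 with an array left out. For all genes these counts were 9525, 504, 14 and 940 to 4526, the lowest without wildtype replicate 2 and the highest without replicate 1. Isx had 0.50 within letter F, -0.88 within letter B (adjusted p 0.0232), and -0.60 to -0.15 with an array left out. Letter F holds 1 wildtype sample. Ttr passed in 25 of 26 alternatives, the exception being letter F (1.29; adjusted p 0.583).

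Between adjacent and wildtype tissue 1 gene passed with added quantile normalization, with trend and robust, or with the low-value filter, 73 within letter F, 0 to 1 with an array left out and 1691 with array weights, whose estimation stopped before reaching its tolerance. With weights 1 member passed, Bco1 (-0.94; adjusted p 0.00758), and 1 pathway gene; within letter F 1 pathway gene passed.

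The other turns of sign, beside that of Isx within letter F, fell on comparisons in which the gene did not pass in any alternative. Between adjacent and wildtype tissue Crabp2 was 0.00093 with no replicate block, with the groups compared alone and without tumor 1, 0.088 with quantile normalization, 0.054 with median centring, 0.0098 with weights, 0.30 within letter F, 0.067 without acinar arrays, and -0.17 to 0.19 with an array left out. Rbp4 was -0.00068 with weights, -0.26 within letter F, -0.0064 without acinar arrays and -0.13 to 0.24 with an array left out. Ttr was 0.23 with weights, 0.17 without acinar arrays and -0.89 to 0.27 with an array left out; Aldh1a1 was -0.14 with weights and -0.051 to 0.99 with an array left out; Stra6 was -0.025 within letter B and -0.0072 to 0.18 with an array left out. Against wildtype tissue Crabp2 was -0.13 within letter B and -0.11 to 0.24 with an array left out, and Rbp4 was -0.14 within letter F. Against adjacent tissue Stra6 was -0.0065 with quantile normalization, and Crabp2 ran from -0.0074 to 0.12 with an array left out. The cause of these changes was not tested.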
